A study of Mus musculus with 12 samples.

Results

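The cytosolic heat shock proteins are described here across 4 treatments of CT26, a line of mouse colon carcinoma cells. The set was fixed by name as 10 genes: the HSP90 genes Hsp90aa1 and Hsp90ab1, the HSP70 gene Hspa8, the HSP110 genes Hspa4 and Hsph1, the J proteins Dnajb1 and Dnaja1, the small heat shock protein Hspb1, the transcription factor Hsf1 and the co-chaperone Bag3. Of these, 9 were found among the 12584 genes of the deposited table, and all 9 passed the filter on low values that left 10101 genes, each with values above the filter's level both with and without D. Hspb1 was not analysed here. The study sequenced total RNA from 12 libraries of cells treated for 24 h, with 3 libraries for the PBS control, 3 for NP@M, 3 for NP-D@M and 3 for NP-D@MP. The labels do not spell out what NP, D, M or P stand for and give no dose; the series title names a nanodrug with an engineered cancer cell membrane that is aimed at CDKs, the cyclin-dependent kinases. All groups are of 1 cell line, the control is PBS, and NP@M differs from NP-D@M in its name by the D alone. NP-D@MP differs from NP-D@M by the P.

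Heat shock proteins bind unfolded or partly folded proteins and help them fold, pass them to other chaperones or send them for degradation; HSP70 and HSP90 use cycles of ATP to do so. HSP70 proteins take substrates from J proteins, exchange their nucleotide with the help of HSP110 and BAG proteins, and hand many kinases and receptors on to HSP90. HSF1 is held inactive by chaperones in unstressed cells. Under heat or proteotoxic stress it forms trimers, binds heat shock elements made of inverted GAA units in promoters, and induces the stress-inducible chaperones.

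Expression is given as FPKM, fragments per kilobase of gene and mega-read, so that levels can be compared between genes. Each FPKM value corresponded to a whole number of reads. The reads in the table summed to 12.8 to 15.7 M (M, mega-reads) per library. The authors' divisor, their library size, was 1.95 to 2.02 times these reads in the libraries without D and 0.533 to 0.565 times in the libraries with D. The same read count therefore gave a higher FPKM with D, and the changes of the set with D are also given after scaling each library to its reads in the table. That scaling moved the median log2 change of all tested genes by -1.26 for NP-D@M vs NP@M and by -1.29 for NP-D@MP vs PBS. The part of this difference in the results was not tested beyond the scalings given. The median also depends on the genes kept. As deposited, it was -0.19 for NP-D@M vs NP@M over all tested genes and 1.06 over genes with a mean of at least 5 FPKM. Changes given below relative to the median of all genes depend on that choice of genes. Since these are bulk samples, fewer cells making a transcript and less of it per cell cannot be told apart. No label says whether the libraries within a group were separate cultures; a p-value here speaks only of the spread among these libraries, and that spread may be technical.

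The labelled cell type was checked on marker genes, since the protocol in the labels describes taking retinas, which goes against the cell line it is attached to. Of 8 colon epithelium markers, Krt18 and Krt20 could be read. Their summed level was 15.1 to 18.7 FPKM without D and 73.0 to 91.1 FPKM with D, but the genes went opposite ways: Krt20 was at 7.83 to 9.64 FPKM without D and 71.3 to 88.2 FPKM with D, and Krt18 at 5.61 to 9.61 and 1.73 to 5.97 FPKM, ranges that overlap slightly. As a share of the reads in the table the sum was 0.00516 to 0.00615% without D and 0.00790 to 0.00929% with D. Epcam, Cdh1 and 4 others were not analysed here. Of 6 fibroblast and stroma markers, 5 could be read. Their summed level was 69.5 to 85.5 FPKM without D and 11 to 15.2 FPKM with D, or 0.152 to 0.181% and 0.00688 to 0.00937% of the reads. Col1a2 was the largest part, at 53.2 to 63.4 and 7.94 to 12.8 FPKM, and Col1a1 and Pdgfrb were also lower with D. Dcn went the other way in FPKM, at 0.0165 to 0.101 and 0.104 to 0.490 FPKM. These levels are near 0 and the smaller divisor with D raises FPKM, so this direction is given for FPKM only. Pdgfra overlapped, at 0.390 to 0.731 and 0.112 to 0.499 FPKM. The 3 myeloid markers that could be read of 6 summed to 2.57 to 3.25 FPKM without D and 9.31 to 21.3 FPKM with D, but as shares of the reads, 0.000649 to 0.000823% and 0.000664 to 0.00144%, they overlapped. Among endothelial markers Pecam1 alone of 3 could be read, at no more than 0.191 FPKM. No lymphoid or retina marker was analysed here. The part of these markers in the results was not tested.

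Some promoters of the set carry the inverted GAA units that heat shock factors recognise. They are shown because they are the sequence through which HSF1 is known to act on such genes. Promoter windows from 250 bases before to 50 bases after each start, from RefSeq on GRCm38.p6, were at hand for 5 of the 9 genes. A pair of units, GAANNTTC or TTCNNGAA, occurred in 15.1% of all 32851 windows of that length, and a run of 3 alternating units (GAA, TTC and GAA, or TTC, GAA and TTC, joined by NN) in 0.603%. The reverse complement of each pattern is the pattern itself or the one named with it, so both strands are covered, and a run of 3 always contains the pair. The sites found are printed 5′ to 3′ on the gene's strand, with the matching letters in capitals.
Hsph1, chr5:149636280-149636309, minus strand, 3 units: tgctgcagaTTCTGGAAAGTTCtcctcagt
Hsph1, chr5:149636351-149636380, minus strand: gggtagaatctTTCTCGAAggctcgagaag
Dnaja1, chr4:40722333-40722362, plus strand: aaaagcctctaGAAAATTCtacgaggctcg
Bag3, chr7:128523603-128523632, plus strand: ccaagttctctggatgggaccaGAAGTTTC
Positions are counted from the start, not from the edge of the window. For 1 of the 2 Hsph1 windows, the run of 3 units began at base 16 after the start and the pair at -54. Both Hsph1 windows hold the run. The Dnaja1 pair began at -124, in 1 of the 3 windows of that gene, and the Bag3 pair at base 43. In both of these windows the bases after the start were not found in the gene's GENCODE transcripts. Their positions therefore hold for the RefSeq starts alone. The Dnaja1 site lies inside the gene as annotated in the deposited data, which begins at 40722150. The windows of Hspa4 and Dnajb1 did not hold these letters. A match describes the letters only.

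With D, the set split. The HSP70 gene Hspa8, the HSP110 gene Hspa4, the J proteins Dnajb1 and Dnaja1 and the co-chaperone Bag3 fell in both comparisons of a treatment with D against one without it, under every scaling tried. The HSP90 genes and Hsf1 were higher in the deposited FPKM, by 2.03 to 4.20-fold, but this direction held under some scalings and changed under others. Of the 9 genes, 3 were called higher and 6 lower in NP-D@M vs NP@M, where 41.8% of all tested genes were called higher and 47.7% lower (limma on log2(FPKM + 1), Benjamini-Hochberg adjusted over all tested genes, called under 0.05). In NP-D@MP vs PBS, 3 were called higher and 5 lower, where 43.2% of all genes were higher and 47.3% lower. Since 89.5% and 90.5% of all genes were called in these comparisons, the number of calls in the set is close to the background. The background of directions depends on the genes kept. Of the 4944 genes with a mean of at least 5 FPKM, which include all 9, 3193 were higher and 1381 lower in NP-D@M vs NP@M. In NP-D@MP vs PBS these were 3245 and 1339. The counts of the set were the same under that filter. Genes can pass it through high values on 1 side alone. After scaling to the reads in the table, 0 genes of the set were called higher and 8 lower in each comparison, against 17.5% of all genes higher and 70.5% lower for NP-D@M vs NP@M, and 17.5% and 70.7% for NP-D@MP vs PBS. Limma voom on the recovered reads with those library sizes gave the same counts of 0 and 8, against 17.1% and 70.5% of all genes in the first comparison and 17.1% and 70.6% in the second. Quantile normalization left 1 higher and 8 lower in each, although only 41.8% and 42.3% of all genes were then lower and 37.7% and 38% higher. With libraries scaled to a common sum of FPKM, 0 were higher and 9 lower in each, against 9.34% and 9.49% of all genes higher and 80% and 79.9% lower. The libraries of the 2 groups did not overlap for 8 of the 9 genes when NP-D@M was set against NP@M, as for 87.3% of all genes, and for 9 of 9 in NP-D@MP vs PBS, as for 93% of all genes. The 2 comparisons have no library in common, although limma estimated their spread together.

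**Figure D1:**
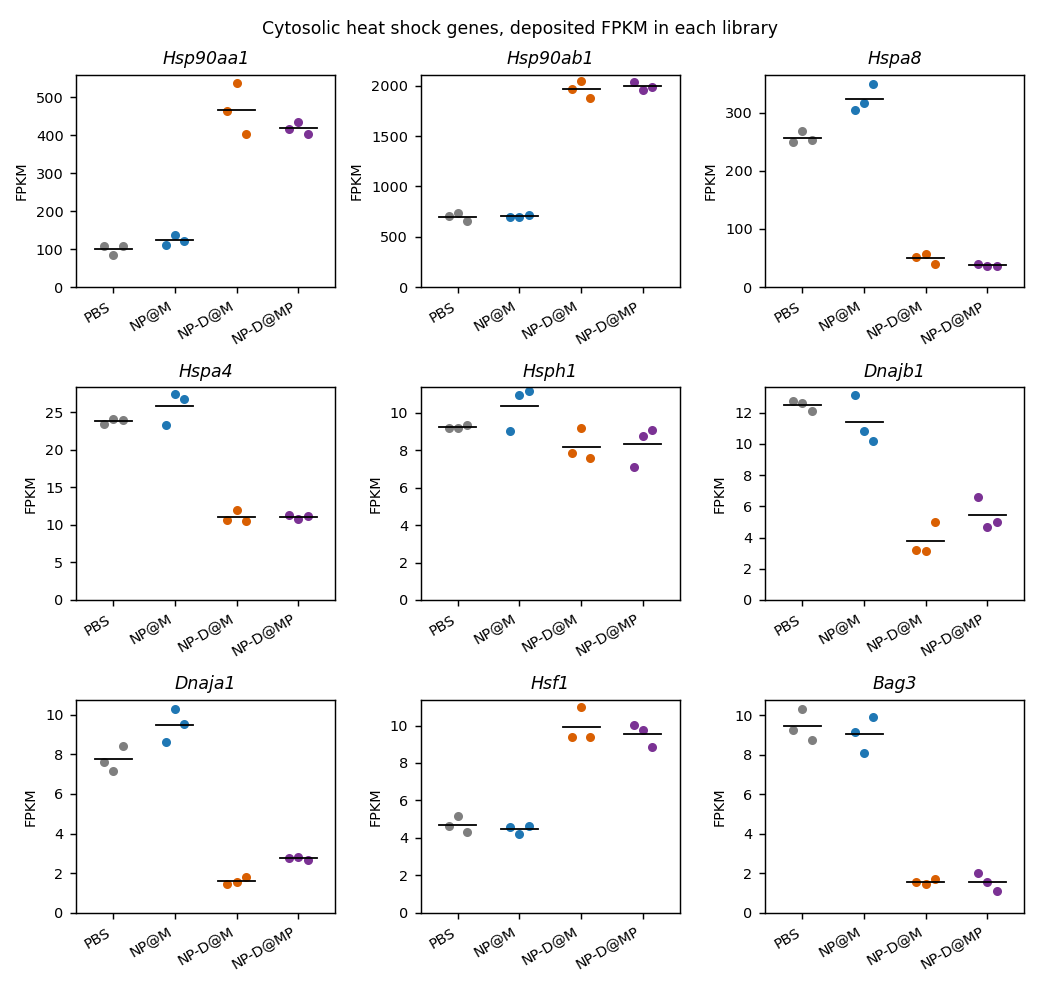
FPKM of the 9 heat shock genes in each of the 12 libraries (linear axes from 0, a different range for each gene), with points for single libraries and a bar for the mean of each group of 3. Hspa8 stands at 248.8 to 349.8 FPKM in the 6 libraries without D and at 36.0 to 57.2 in the 6 with D, while Hsp90ab1 stands at 661 to 732 and at 1882 to 2043.

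The HSP90 genes encode the chaperone that matures kinases and steroid receptors. Hsp90ab1, the constitutive form (ENSMUSG00000023944, GRCm38 chromosome 17, 45567775 to 45573271, minus strand), measured 706, 732 and 661 FPKM with PBS and 696, 695 and 718 FPKM with NP@M. It measured 1972, 2043 and 1882 FPKM with NP-D@M and 2042, 1960.5 and 1991 FPKM with NP-D@MP. The libraries with D were all above those without D, and the groups within each side overlapped. The mean was 2.80-fold higher in NP-D@M than in NP@M (1965 ± 81.0 vs 703 ± 13 FPKM, SD, n = 3; log2 change 1.48, SE 0.0780, limma adjusted p = 6.26e-09). It was 2.85-fold higher in NP-D@MP than in PBS (1998 ± 41.2 vs 700 ± 36.0 FPKM; log2 change 1.51, limma adjusted p = 5.18e-09). In reads, the gene had 55856 to 67352 per library without D and 42587 to 49638 with D, so that the log2 change was -0.35 and -0.38 when libraries were scaled to the reads in the table. Both of these are above the median of all genes under that scaling, -1.46 in each comparison.

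Hsp90aa1, the stress-inducible HSP90 form (ENSMUSG00000021270, chromosome 12, 110690605 to 110702728, minus strand), measured 107, 84.5 and 108 FPKM with PBS and 112, 136 and 120 FPKM with NP@M. It measured 463, 538 and 403 FPKM with NP-D@M, while NP-D@MP gave 417, 437 and 404 FPKM. All libraries with D were above all without D, and every NP@M library was above every PBS library. The mean was 3.81-fold higher in NP-D@M than in NP@M (468 ± 67.5 vs 123 ± 12.6 FPKM; log2 change 1.92, SE 0.132, limma adjusted p = 6.48e-08) and 4.20-fold higher in NP-D@MP than in PBS (log2 change 2.07, limma adjusted p = 3.33e-08). With libraries scaled to their reads in the table, the log2 changes were 0.09 and 0.19 and neither was called. Quantile normalization called the gene lower in both comparisons, at -0.66 and -0.48, as did a common sum of FPKM, at -0.65 and -0.52. The limma adjusted p over 17 alternatives, calls of either direction included, ran from 9.12e-12 to 0.540 and from 4.07e-12 to 0.208. Of 50-base words in this gene, 47.5% also occur in other annotated genes, among them Gm12346, so its reads could have been divided between copies in counting. Gm12346 itself stood at 2.11 and 2.66 FPKM without D and 7.76 and 7.79 FPKM with D, far below Hsp90aa1.

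Hspa8, the constitutive cytosolic HSP70 that also uncoats clathrin vesicles (ENSMUSG00000015656, chromosome 9, 40800984 to 40810087, plus strand), measured 248.8, 269 and 253 FPKM with PBS and 304, 316 and 350 FPKM with NP@M. It measured 51.0, 57.2 and 40.4 FPKM with NP-D@M and 40.2, 36.0 and 36.8 FPKM in the NP-D@MP libraries. The 4 groups did not overlap: NP@M was highest, then PBS, NP-D@M and NP-D@MP. The read counts fell from between 30635 and 46736 per library without D to between 1130 and 1842 with D. The gene was 6.53-fold lower in NP-D@M than in NP@M (49.5 ± 8.49 vs 323 ± 23.6 FPKM; log2 change -2.69, SE 0.122, limma adjusted p = 1.71e-09) and 6.81-fold lower in NP-D@MP than in PBS (37.7 ± 2.23 vs 257 ± 10.7 FPKM; log2 change -2.74, limma adjusted p = 1.46e-09). With libraries scaled to their reads in the table, the log2 change for NP-D@M vs NP@M was -4.50, which is -3.05 relative to the median of all genes; as deposited it was -2.50 relative to that median. Hspa8 shares 39.4% of its 50-base words with other genes such as Gm8355, which stood at 1.81 and 1.91 FPKM without D and 0.558 and 0.213 FPKM with D.

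Hspa4 and Hsph1 encode HSP110 proteins, the nucleotide exchange factors of HSP70. Hspa4 (ENSMUSG00000020361, chromosome 11, 53259814 to 53300457, minus strand) measured 23.4, 24.0 and 23.9 FPKM with PBS, 23.3, 27.4 and 26.8 with NP@M, 10.7, 11.97 and 10.4 with NP-D@M, and 11.2, 10.7 and 11.2 under NP-D@MP. The libraries with D lay together below those without. It was 2.34-fold lower in NP-D@M than in NP@M (log2 change -1.16, SE 0.0891, limma adjusted p = 1.72e-07) and 2.15-fold lower in NP-D@MP than in PBS (log2 change -1.04, limma adjusted p = 4.34e-07). After scaling to the table's reads the log2 changes were -2.87 and -2.80, or -1.41 and -1.35 relative to the median of all genes.

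Hsph1, the heat-inducible HSP110 form whose promoter carries the run of 3 units shown above (ENSMUSG00000029657, chromosome 5, 149614287 to 149636376, minus strand), had the smallest change of the set with D in the deposited FPKM. It measured 9.17, 9.17 and 9.33 FPKM with PBS, 9.01, 10.97 and 11.2 with NP@M, 7.85, 9.16 and 7.58 with NP-D@M and 7.12, 8.75 and 9.09 with NP-D@MP. NP-D@M overlapped NP@M, while the NP-D@MP libraries all lay just below PBS. It was 1.27-fold lower in NP-D@M than in NP@M (log2 change -0.31, SE 0.115, limma adjusted p = 0.0251), but this call was lost without NP@M replicate 5 or 6 or NP-D@M replicate 7 or 9, and over 17 alternatives the adjusted p ran from 2.00e-11 to 0.0896. In NP-D@MP vs PBS the log2 change was -0.14 (95% interval -0.39 to 0.11, limma adjusted p = 0.257), which was not called. Here the call depends on the scaling: the log2 change was -1.83 with the table's reads (adjusted p = 7.57e-09) and -0.44 with quantile normalization (adjusted p = 0.00613), and 4 of 17 alternatives called it lower, with adjusted p from 6.46e-11 to 0.719. Scaled to the reads in the table it was lower in NP-D@M than in NP@M by a log2 change of -1.96, or -0.50 relative to the median of all genes.

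Dnajb1 and Dnaja1 encode J proteins, which deliver substrates to HSP70 and start its ATP cycle. Dnajb1 (ENSMUSG00000005483, chromosome 8, 83608193 to 83612653, plus strand) measured 12.8, 12.6 and 12.1 FPKM with PBS, 13.1, 10.8 and 10.2 with NP@M, 3.20, 3.14 and 4.98 with NP-D@M and 6.59, 4.69 and 4.99 with NP-D@MP. All 6 libraries with D were below all 6 without, and held 73 to 158 reads each. It was 3.01-fold lower in NP-D@M than in NP@M (log2 change -1.39, SE 0.159, limma adjusted p = 5.71e-06) and 2.30-fold lower in NP-D@MP than in PBS (log2 change -1.08, limma adjusted p = 4.86e-05). After scaling to the table's reads the log2 changes were -2.94 and -2.73, or -1.48 and -1.28 relative to the median of all genes.

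Dnaja1 (ENSMUSG00000028410, chromosome 4, 40722150 to 40737149, plus strand) measured 7.63, 7.16 and 8.43 FPKM with PBS and 8.64, 10.3 and 9.55 FPKM with NP@M. It measured 1.44, 1.55 and 1.82 FPKM with NP-D@M and 2.79, 2.80 and 2.68 FPKM with NP-D@MP. As with Hspa8, the 4 groups did not overlap, but here NP-D@M and not NP-D@MP was lowest. Dnaja1 was 5.92-fold lower in NP-D@M than in NP@M (log2 change -2.01, SE 0.0957, limma adjusted p = 2.62e-09) and 2.81-fold lower in NP-D@MP than in PBS (log2 change -1.22, limma adjusted p = 2.06e-07). Scaled to the table's reads, these were -3.39 and -2.72, or -1.93 and -1.27 relative to the median of all genes. The gene overlaps Smu1 on the other strand by 608 bases and shares 20.6% of its 50-base words with other genes. Smu1 stood at 15.9 and 17.0 FPKM without D and 4.47 and 4.34 FPKM with D, and no source used here gives the strand setting of the counting, so reads of the overlap cannot be told apart.

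Hsf1, the regulator (ENSMUSG00000022556, chromosome 15, 76477422 to 76501913, plus strand), measured 4.64, 5.18 and 4.32 FPKM with PBS, 4.58, 4.22 and 4.63 with NP@M, 9.38, 11.01 and 9.40 with NP-D@M and 10.02, 9.77 and 8.87 with NP-D@MP. Every library with D was above every library without. It was 2.22-fold higher in NP-D@M than in NP@M (log2 change 0.99, SE 0.0960, limma adjusted p = 1.26e-06) and 2.03-fold higher in NP-D@MP than in PBS (log2 change 0.89, limma adjusted p = 3.47e-06). Scaled to the reads in the table these log2 changes were -0.60 and -0.76, both called lower, although they stand 0.86 and 0.70 above the median of all genes. As deposited, the median of genes with a mean of at least 5 FPKM was 1.06 and 1.10, above the changes of Hsf1 in both comparisons. HSF1 is regulated mainly as a protein, through release, trimer formation and phosphorylation, none of which RNA levels measure.

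Bag3, the co-chaperone that joins HSP70 to small heat shock proteins and to selective autophagy (ENSMUSG00000030847, chromosome 7, 128523616 to 128546981, plus strand), measured 9.27, 10.3 and 8.74 FPKM with PBS, 9.16, 8.09 and 9.89 with NP@M, 1.58, 1.45 and 1.71 with NP-D@M, and 2.04, 1.54 and 1.09 under NP-D@MP. The groups with D overlapped each other and lay below both groups without D. Its read counts were 614 to 809 without D and only 20 to 39 with D, the fewest in the set. It was 5.72-fold lower in NP-D@M than in NP@M (log2 change -1.96, SE 0.132, limma adjusted p = 5.27e-08) and 6.06-fold lower in NP-D@MP than in PBS (log2 change -2.04, limma adjusted p = 3.65e-08). Scaled to the table's reads, these were -3.33 and -3.43, or -1.88 and -1.98 relative to the median of all genes.

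**Figure D2:**
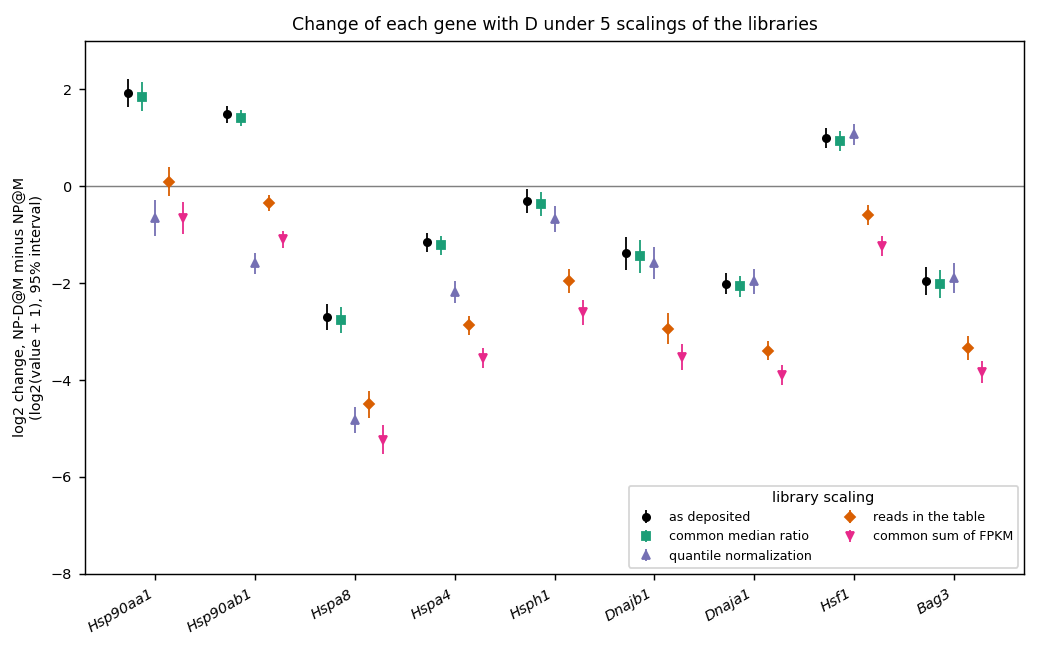
Log2 change of each gene in NP-D@M vs NP@M, on the log2(value + 1) scale with 95% intervals, under 5 scalings of the libraries. Hspa8, Hspa4, Hsph1, Dnajb1, Dnaja1 and Bag3 lie below 0 under all 5, while Hsp90aa1, Hsp90ab1 and Hsf1 lie on both sides of 0.

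The place of each gene within its own library does not depend on how libraries are scaled. As percentiles of FPKM among the 12584 genes of the table, Hsp90ab1 stood at 99.8 to 99.9 without D and 99.3 to 99.5 with D, and Hsp90aa1 at 97.7 to 98.8 and 97.3 to 98.2. Hspa8 stood between 99.4 and 99.6 without D, beside Hsp90ab1, and between 85.8 and 89.99 with D. Hspa4 stood between 90.6 and 92.4 without D and between 73.6 and 75.7 with D, and Hsph1 between 75.6 and 80.5 and between 68.8 and 72.7. Dnajb1 stood between 78.7 and 83.3 without D and between 57.7 and 67.8 with D. For Dnaja1 these places were 69.8 to 78.6 without D and 45.0 to 55.2 with D, and for Bag3 73.5 to 78.2 and 39.4 to 49.7. Hsf1 alone of the 9 genes had a higher place in all libraries with D, 71.6 to 74.9 against 56.0 to 61.1. The 9 genes together held 0.784 ± 0.00553% of the reads in the table for PBS and 0.872 ± 0.0355% for NP@M, and with D 0.457 ± 0.0373% for NP-D@M and 0.429 ± 0.00758% for NP-D@MP.

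**Figure D3:**
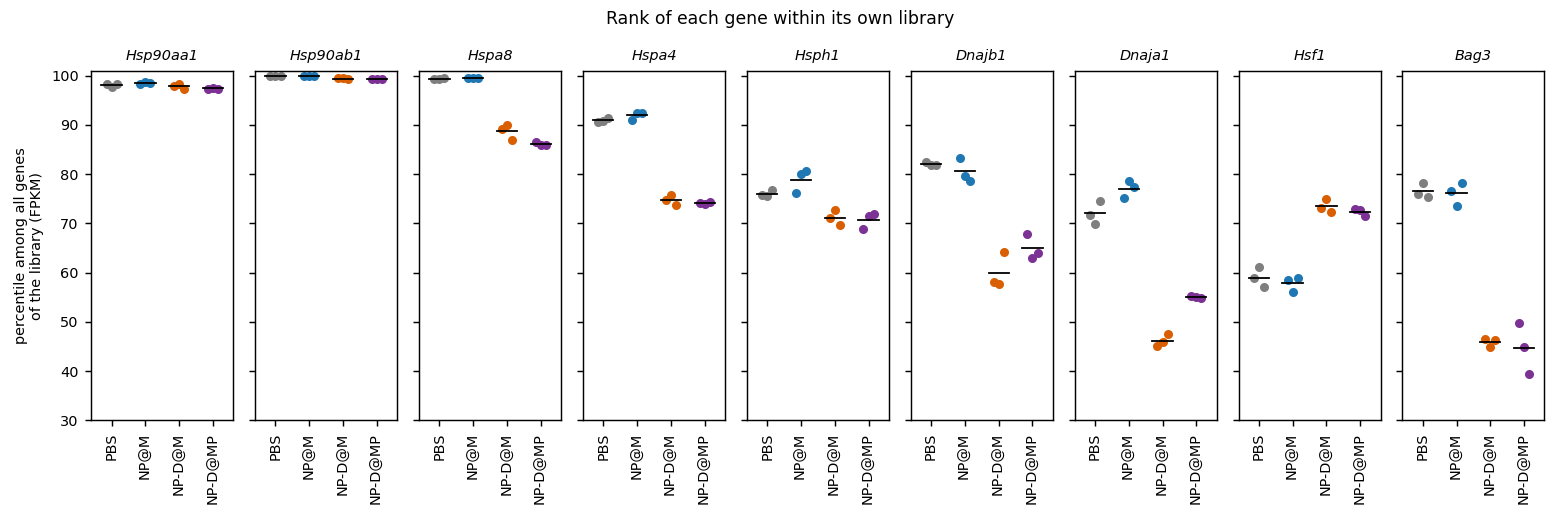
Percentile of each of the 9 genes among the 12584 genes of the same library, for the 12 libraries by group, with a bar for the mean of each group; the axis starts at 30. Hsp90aa1 and Hsp90ab1 stay at 97.3 or above in all 12 libraries. Hspa8, Hspa4, Hsph1, Dnajb1, Dnaja1 and Bag3 stand lower in every library with D than in any without, and Hsf1 stands higher. Hsp90ab1 too stands lower in every library with D, at 99.3 to 99.5 against 99.8 to 99.9.

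Ratios between 2 genes of a library are likewise free of its scaling. Hspa8 stood at 0.367 ± 0.0151 of the FPKM of Hsp90ab1 with PBS and at 0.460 ± 0.0254 with NP@M, but at 0.0251 ± 0.00333 with NP-D@M and 0.0189 ± 0.000732 under NP-D@MP. The groups of this ratio did not overlap in any of the 4 comparisons, and its log2 difference was -4.20 between NP-D@M and NP@M and -4.28 between NP-D@MP and PBS (two-sided exact permutation p = 0.1 each, the smallest that 3 libraries against 3 can give; 0.2 after Benjamini-Hochberg adjustment over the 20 ratio tests).

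For HSP90 and HSP110, the ratio of the inducible form in the set to its constitutive partner was higher with D. The exact permutation test on 3 libraries a group cannot reach the threshold of 0.05, so it cannot settle this. How often other pairs of genes separate in this way was not counted. Hsp90aa1 shares 47.5% of its 50-base words with other genes, so its level is uncertain. Hsp90aa1 over Hsp90ab1 was 0.143 ± 0.0248 with PBS, 0.175 ± 0.0190 with NP@M, 0.237 ± 0.0246 with NP-D@M and 0.210 ± 0.0111 under NP-D@MP. Hsph1 over Hspa4 was 0.388 ± 0.00492 and 0.401 ± 0.0145 without D, and 0.742 ± 0.0210 and 0.754 ± 0.105 with D. For both pairs the groups did not overlap between NP-D@M and NP@M or between NP-D@MP and PBS, again at the smallest exact permutation p of 0.1. Dnajb1 over Dnaja1 was 1.62 ± 0.168, 1.21 ± 0.266, 2.33 ± 0.365 and 1.97 ± 0.355 for PBS, then NP@M, then NP-D@M, then NP-D@MP, without overlap only between NP-D@M and NP@M among the comparisons made. Bag3 over Hspa8 was 0.0367 ± 0.00191, 0.0280 ± 0.00228, 0.0329 ± 0.00865 and 0.0411 ± 0.0106 in the same order, and its groups overlapped in each of these comparisons except NP@M vs PBS (log2 difference -0.39, exact permutation p = 0.1).

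**Figure D4:**
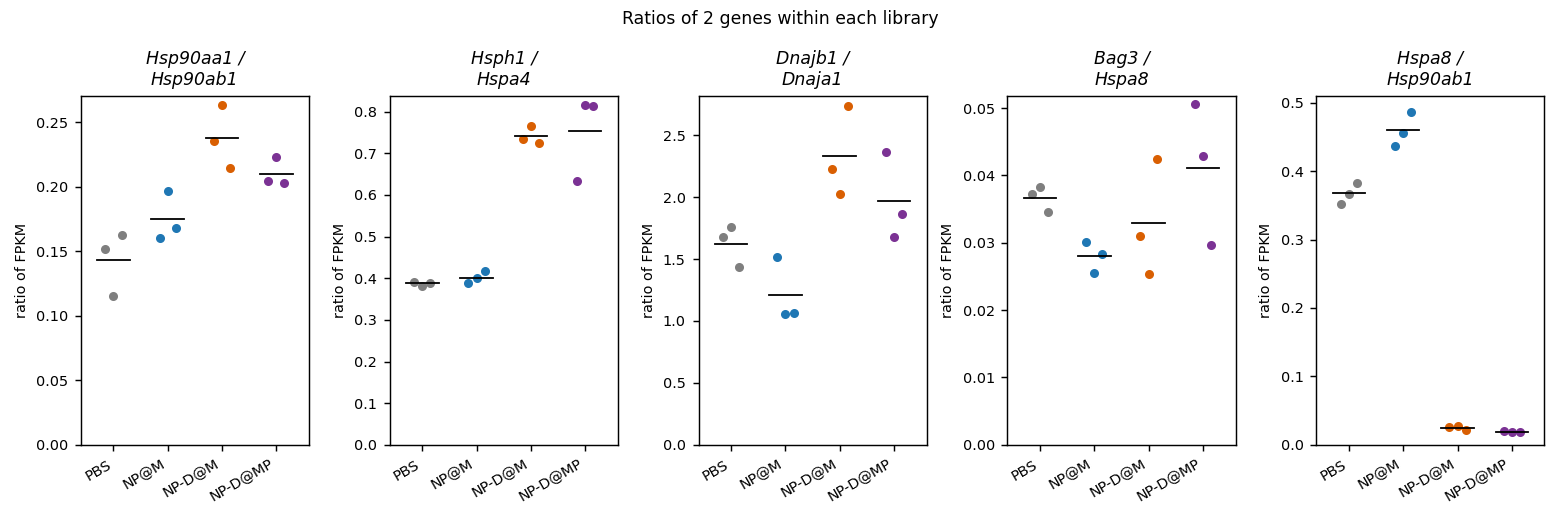
Ratio of FPKM between 2 heat shock genes of the same library (linear axes from 0), for 5 pairs, with a point per library and a bar for the mean of each group of 3. Hspa8 over Hsp90ab1 falls from 0.367 and 0.460 without D to 0.0251 and 0.0189 with D.

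NP@M vs PBS compares the treatment whose name lacks D with the control. None of the set was called (0 of 9), where 0.0099% of all tested genes were called, and limma gave 3 of the 9 and 1092 of all genes an unadjusted p under 0.05. Those 3 were Hspa8 (log2 change 0.33, 95% interval 0.06 to 0.60, adjusted p = 0.448), Hsp90aa1 (0.30, adjusted p = 0.456) and Dnaja1 (0.26, adjusted p = 0.448). They were also the 3 of 9 whose NP@M libraries all lay above the PBS libraries, as 28.4% of all genes had groups that did not overlap. A further fit, limma voom on the recovered reads scaled to the table, called Hspa8 higher (adjusted p = 0.0466; 0.0466 to 0.997 over its 17 alternatives), where this fit called 0.188% of all genes higher and 0.505% lower. For Hsp90ab1 the 95% interval of the log2 change ran from -0.16 to 0.18.

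NP-D@MP vs NP-D@M compares the treatments with D that differ by the P. Again 0 of 9 were called, against 0.0495% of all tested genes (0.0396% higher and 0.0099% lower), while limma gave 3 of the 9 and 1713 of all genes an unadjusted p under 0.05 and voom called 0 of the 9 with either library size. Dnaja1 was at 2.76 ± 0.0647 FPKM with NP-D@MP and 1.60 ± 0.198 FPKM with NP-D@M (log2 change 0.53, 95% interval 0.32 to 0.74, adjusted p = 0.0940), without overlap. Hspa8 was at 37.7 ± 2.23 and 49.5 ± 8.49 FPKM (log2 change -0.37, adjusted p = 0.218), also without overlap, and Dnajb1 at 5.43 ± 1.02 and 3.77 ± 1.05 FPKM (log2 change 0.44, adjusted p = 0.237). Dnaja1 and Hspa8 were the 2 of 9 genes without overlap, as 14.2% of all genes were. Without NP-D@M replicate 9, Dnaja1 and Dnajb1 were called higher (limma adjusted p = 0.00743 and 0.0207) and Hspa8 lower (0.0133); these were the lowest of the 17 alternatives for each gene, and the highest was 0.599. Leaving out that library changed the calls across the whole table, to 9.59% of all genes higher and 2.87% lower. A pseudocount of 0.1 called Dnaja1 higher, with 0.198% of all genes higher and 0.0594% lower. For Hsp90ab1 the interval was -0.15 to 0.20.

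Chaperones outside the set were read from 8 lists with 84 genes, of which 66 were tested. In NP-D@M vs NP@M, 39 were called higher and 22 lower in the deposited FPKM, but 15 and 40 after scaling to the reads in the table. These are 59.1% and 33.3% as deposited, where 41.8% of all genes were higher and 47.7% lower, and 22.7% and 60.6% scaled, where 17.5% were higher and 70.5% lower. These shares of all genes stand beside each list's counts, but they depend on the level of the genes kept. Among the 4944 genes with a mean of at least 5 FPKM, 3193 were called higher and 1381 lower as deposited. The lists were not counted under that filter, so an excess over genes of like level was not tested. Of the 66, 4 (Hspa1b, Bag4, Ttc4 and Hsf2) reached the filter's 1 FPKM only in libraries with D or only in libraries without D and so had to differ; the other 62 had 38 higher and 19 lower, or 15 and 37 scaled. In NP@M vs PBS 0 of the 66 were called by limma on log2(FPKM + 1). An unadjusted limma p under 0.05 was seen for 12 of the 66 and for 1092 of all 10101 genes. Voom on the reads called 0 or 1 of the 66 depending on the library size used. The 1 call came with the table's reads, where 0.188% of all genes were called higher and 0.505% lower. In NP-D@MP vs NP-D@M 0 of the 66 were called, and voom called 0 with either size. There, 10 of the 66 and 1713 of all 10101 genes had an unadjusted limma p under 0.05. The list values that follow are for NP-D@M against NP@M.

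The co-chaperones of HSP90 and HSP70 had 13 of the 22 not bound by the filter called higher and 6 lower, and 7 and 12 after scaling to the reads in the table. Bag1, an HSP70 nucleotide exchange factor, was at 578 ± 11.1 vs 38.6 ± 1.76 FPKM (log2 change 3.87) and stayed higher under every scaling. Ppp5c, a phosphatase bound to HSP90, was at 127 ± 6.92 vs 18.0 ± 1.45 FPKM (log2 change 2.76) and was likewise above 0 under each scaling. Ptges3, the p23 protein that stabilises the closed form of HSP90, was at 6.64 ± 1.14 vs 65.7 ± 9.0 FPKM (log2 change -3.13). Ttc4, an HSP90 co-chaperone, was at 0.267 ± 0.185 vs 3.70 ± 0.233 FPKM, given as a description because it passed the filter only without D. Bag1 was thus higher and Bag3 of the set lower, while the changes of Bag2, Bag4, Bag5 and Bag6 are not given here.

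The other J proteins had 3 of 10 called higher and 6 lower, with a median log2 change of -0.51, and 1 higher and 9 lower after scaling to the reads in the table. Dnaja2, close in kind to Dnaja1, was at 5.61 ± 0.217 vs 43.5 ± 2.41 FPKM (log2 change -2.75), and Dnajc5, the vesicle protein CSP, at 6.71 ± 1.09 vs 16.9 ± 0.212 FPKM (log2 change -1.22). Dnajc9, a histone chaperone, was at 42.6 ± 3.66 vs 10.04 ± 1.21 FPKM (log2 change 1.98, but -0.46 when libraries were scaled to a common sum).

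Of the 3 genes of the other HSP70 and HSP110 list not bound by the filter, 0 were called higher and 2 lower, and 0 and 3 after scaling to the reads in the table. Hspa1b, a strictly stress-inducible HSP70, was at 1.03 ± 0.485 vs 0.148 ± 0.0456 FPKM. It passed the filter only through libraries with D, so this is a description. It shares 62.3% of its 50-base words with other genes, so its level is uncertain. Hspa12a was at 1.19 ± 0.283 vs 3.61 ± 0.229 FPKM (log2 change -1.08) and Hspa13 at 3.27 ± 0.827 vs 5.33 ± 0.670 FPKM (log2 change -0.58).

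Of the other small heat shock proteins, 2 of 3 were called higher and 1 lower, and 0 and 2 after scaling to the reads in the table. Cryab, alpha-B crystallin, was at 38.3 ± 2.51 vs 11.5 ± 0.293 FPKM (log2 change 1.66, but -0.09 scaled to the reads in the table). Hspb8, the partner of Bag3 in selective autophagy, was at 6.66 ± 1.72 vs 27.7 ± 2.60 FPKM (log2 change -1.93; -3.59 after scaling to the table's reads), and both partners were called lower.

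Of the TRiC chaperonin, the ring that folds actin and tubulin, 6 of 8 subunits were called higher and 2 lower, but 2 higher and 5 lower after scaling to the reads in the table. Cct7 was at 311 ± 6.71 vs 48.0 ± 1.04 FPKM (log2 change 2.67) and Cct4 at 29.9 ± 3.73 vs 65.2 ± 4.50 FPKM (log2 change -1.10), so the direction differed between subunits of 1 ring. Cct2, at 556 ± 23.3 vs 129 ± 3.15 FPKM (log2 change 2.10), was lower under quantile normalization, at -0.55. All 6 of 6 prefoldin subunits, which bring substrates to TRiC, were called higher, but 2 higher and 2 lower after scaling to the reads in the table; Pfdn5 was at 393 ± 18.1 vs 40.9 ± 2.80 FPKM (log2 change 3.24).

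Among mitochondrial and endoplasmic reticulum paralogs, 6 of 8 were called higher and 2 lower, but 2 higher and 4 lower after scaling to the reads in the table. Trap1, the mitochondrial HSP90, was at 303 ± 10.4 vs 28.2 ± 1.41 FPKM (log2 change 3.38), a level well under that of Hsp90ab1. Hspa5, the endoplasmic reticulum HSP70 BiP, was at 39.8 ± 21.4 vs 202 ± 8.17 FPKM (log2 change -2.50, limma adjusted p = 3.71e-05), and was thus lower together with Hspa8. Of the other heat shock factors and HSF1 regulators, both not bound by the filter were called higher, and 1 of the 2 after scaling to the reads in the table. Hsf4 was at 12.01 ± 2.14 vs 3.09 ± 0.536 FPKM (log2 change 1.66, but -0.53 when libraries were scaled to a common sum). Hsbp1, which binds HSF1 trimers, was at 266 ± 26.6 vs 23.4 ± 1.70 FPKM (log2 change 3.45), and Hsf2, a second heat shock factor, at 0.201 ± 0.174 vs 1.88 ± 0.185 FPKM, a description because it passed the filter only without D.

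**Figure D5:**
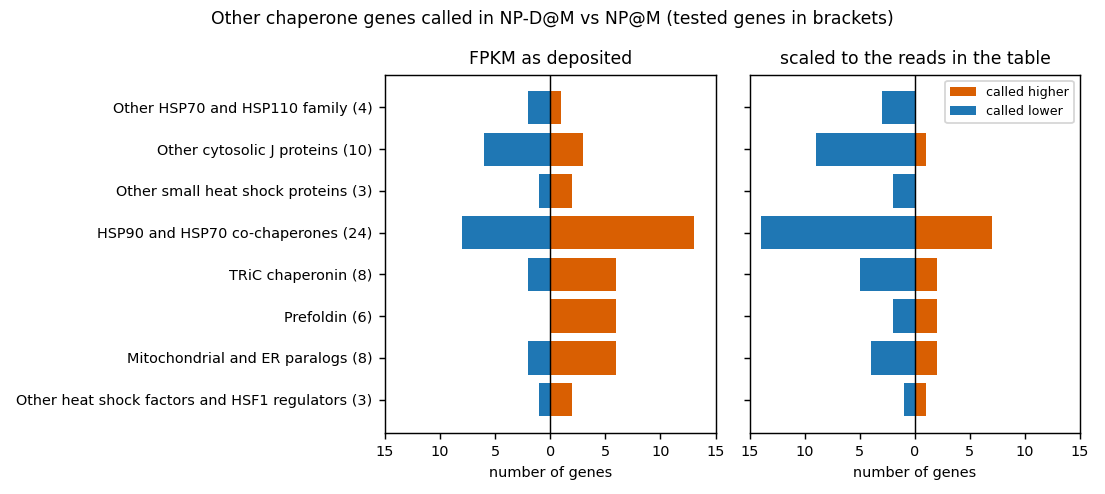
Genes of each of the 8 chaperone lists called higher or lower in NP-D@M vs NP@M, as deposited and after scaling to the reads in the table. The 66 tested genes go from 39 higher and 22 lower to 15 higher and 40 lower, 4 genes that passed the filter on 1 side only included.

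Across the 12 libraries, the genes most like each other in log2(FPKM + 1) are given as a description, since the libraries with and without D form separate clusters that set these correlations. Hspa8 was most like Hspa4 in the set (Pearson r = 0.991), Hsp90ab1 was most like Hsf1 (r = 0.990), and Dnajb1 was most like Dnaja1 (r = 0.950). Hsph1 was the loosest, at r = 0.749 with Hspa4. Over all tested genes, the 3 nearest to Hsf1 were Cryab (r = 0.9952), Psmb2 (0.9951) and Gls2 (0.9949), which are nearly tied. The 3 nearest to Hsp90ab1 were Rpn2 (0.9996), Pigs (0.9995) and Tpm3-rs7 (0.9995).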

How the data were processed

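The authors deposited 1 table of FPKM values for the 12 libraries. Bowtie 0.12.2 and mm8 are named per the submitters' processing notes, while 12571 of the 12584 gene identifiers were found in GENCODE M21 (GRCm38), 12075 of them with identical coordinates. The gene counter, the strand setting and the source of the library sizes are not given in the sources used here. FPKM times gene length was a whole multiple of 1 step per library (relative tolerance 1e-06), which gave reads and the library sizes used. Those sizes were 28.2 to 31.1 M (mega-reads) without D and 7.13 to 8.40 M with D, so that a single read over 1 kb added 0.0322 to 0.0355 and 0.119 to 0.140 FPKM.

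Groups were taken from the sample titles. Limma 3.58.1 in R 4.3.3 was fitted to log2(FPKM + 1) for genes with at least 1 FPKM in at least 3 libraries, all 12 libraries together, with Benjamini-Hochberg adjustment and calls under 0.05. Log2 changes are on that scale, where changes of weakly expressed genes come out too small; folds are ratios of mean FPKM. Ratios of 2 genes were compared by exact permutation tests over libraries in scipy 1.17.1. The filter and the limma fit were run on simulated reads with known changes, for NP@M vs PBS and NP-D@M vs NP@M. That simulation took the authors' library sizes as correct and changed few genes, so it could not test the scaling. The genes and lists were chosen with earlier results of these data known. All set members were named, and from each chaperone list the text draws on the 2 called genes with the smallest adjusted p in each direction in NP-D@M vs NP@M. Replicate numbers are the library numbers of the titles.

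The alternatives tried were libraries scaled to their reads in the table or to a common median ratio, quantile normalization, a pseudocount of 0.1, a filter at a mean of 5 FPKM or none, robust limma moderation with a trend, a fit on the 6 libraries compared, and leaving out each library. Added after seeing the data were scaling to a common sum of FPKM and limma voom on the recovered reads with either library size. Shared 50-base words were counted over GENCODE transcripts.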

Additional observations from a re-analysis of the deposited data

How the results depend on the processing

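No paired analysis was possible because the titles number the libraries in 1 series, so that the groups share no replicate number. The planned edgeR fits were not run, because FPKM is not a count unit; limma voom on the recovered reads took their place. Hspa8, Hspa4, Dnajb1, Dnaja1 and Bag3 kept their direction and call in all 17 alternatives of NP-D@M vs NP@M and of NP-D@MP vs PBS. Log2 changes follow. The cause of each reversal was not tested; the scalings differ by construction in what every library is divided by. Bag3, at 20 to 39 reads per library with D, has the least depth of the set.

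In NP-D@M vs NP@M, scaling to the reads in the table gave Hsp90ab1 -0.352, Hsf1 -0.601, Cryab -0.0901, Hspb6 -0.792 and Dnajc8 -0.899, and voom with those library sizes gave -0.353, -0.694, -0.0994, -0.900 and -0.931. Quantile normalization gave Hsp90aa1 -0.660, Hsp90ab1 -1.59, Cct2 -0.548 and Dnajc8 -0.555. A common sum gave Hsp90aa1 -0.649, Hsp90ab1 -1.09, Hsf1 -1.24, Dnajc9 -0.464, Dnajc8 -1.62, Cryab -0.798, Hspb6 -1.44, Cct2 -0.470 and Hsf4 -0.533. Of the set, 0 genes were then called higher with the table's reads, with voom on them and with a common sum, and 1 with quantile normalization, against 17.5%, 17.1%, 9.34% and 37.7% of all genes.

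In NP-D@MP vs PBS, scaling to the reads in the table gave Hsp90ab1 -0.377 and Hsf1 -0.758, and voom with those sizes -0.377 and -0.870. Quantile normalization gave Hsp90aa1 -0.483 and Hsp90ab1 -1.75, and a common sum Hsp90aa1 -0.524, Hsp90ab1 -1.09 and Hsf1 -1.37. Of the set, 0 were higher and 8 lower with the table's reads and with voom on them, 0 and 9 with a common sum, and 1 and 8 with quantile normalization; all genes lower were 70.7%, 70.6%, 79.9% and 42.3% in that order. Hsph1, not called as deposited, was called lower under these 4 settings alone of 17.

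In NP-D@MP vs NP-D@M, a pseudocount of 0.1 called 1 gene higher, Dnaja1, and leaving out a library called 0 to 2 higher and 0 to 1 lower, all of them without NP-D@M replicate 9, where 9.59% of all genes were called higher and 2.87% lower. Changes near 0 reversed: for Hsp90ab1, Hspa4 and Hsph1 they were -0.0415, -0.0532 and -0.0386 with the table's reads, -0.0407, -0.0565 and -0.0412 with voom on them, -0.0144, -0.0317 and -0.0177 with a common median ratio, -0.102, -0.0465 and -0.0349 with quantile normalization, and -0.0748, -0.0786 and -0.0623 with a common sum. Leaving out a library gave Hsp90ab1 -0.00681 to 0.0526, Hspa4 -0.0315 to 0.0587, Hsph1 -0.0438 to 0.113, Hsf1 -0.0845 to 0.0207, Bag3 -0.160 to 0.107 and the log2 ratio of Hsph1 over Hspa4 -0.0483 to 0.135. In NP-D@MP vs PBS the log2 ratio of Bag3 over Hspa8 ran from -0.0391 to 0.345.

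In NP@M vs PBS, quantile normalization gave Hsp90ab1 -0.0586 and a common sum gave Bag3 0.0068. Leaving out a library gave Hsp90ab1 -0.0327 to 0.0409 and Bag3 -0.116 to 0.0139. Voom with the table's reads called 1 gene of the set higher, with 0.188% of all genes higher. Hsph1 in NP-D@M vs NP@M also lost its call in the fit on 6 libraries.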
